A study of Homo sapiens with 8 samples.

Results

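The Notch genes examined here are 4 receptors (NOTCH1, NOTCH2, NOTCH3 and NOTCH4), 3 ligands (JAG1, JAG2 and DLL4) and 3 genes known to respond to the pathway (HES1, HEY1 and NRARP). They were chosen by name, with earlier results of these data known. All 10 were found among the 60564 genes of the deposited count table. RNA sequencing was done on AB8/13, a human podocyte line immortalised with a temperature-sensitive gene, which was grown at 33 °C and kept at 37 °C for 5 days to differentiate. The control group (n = 4) received a non-targeting shRNA and the other group (n = 4) an shRNA against ATOH8, a helix-loop-helix transcription factor gene. The labels describe lipid transfection, and they do not give the shRNA sequences or say how many were used, so an effect of ATOH8 loss and an effect of the shRNA itself cannot be told apart.

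Notch receptors are single-pass membrane proteins that are activated by ligands on a neighbouring cell. Ligand binding exposes the receptor to cleavage by ADAM10 and then by gamma-secretase, which frees its intracellular domain. That domain enters the nucleus, binds RBPJ with a coactivator of the Mastermind family, and turns on genes such as HES1 and HEY1, which encode transcriptional repressors. In the kidney the pathway acts during nephron formation, is low in mature podocytes, and is known to be reactivated in podocytes in several glomerular diseases.

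The libraries held 21108695 to 27109043 counts each. ATOH8 was counted 122 to 175 times in controls and 51 to 71 times after knockdown, with a log2 fold change of -1.26 (SE 0.127, edgeR quasi-likelihood test, adjusted p = 1.78e-09; exact two-sided permutation test of its CPM, p = 0.0286, the smallest that 70 assignments allow). The labelled cell type was checked against podocyte markers. NPHS1 (nephrin), a defining slit diaphragm marker, had 0 to 6 counts per library and was near absent, whereas CD2AP, KIRREL1 and SYNPO were well above the filter. The common biological coefficient of variation was 3.75%, and small differences therefore passed the test across much of the transcriptome.

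The receptors changed unequally, and NOTCH3 had the largest fold change among the tested members. Levels are given as CPM, counts scaled to the size of each library with the TMM method, and fold changes are log2 of knockdown against control. Of the 10 genes, 9 had enough counts to be tested. Of these, 3 rose (NOTCH1, NOTCH3 and JAG2), 1 fell (NOTCH2) and 5 did not pass the adjusted threshold of 0.05 (NOTCH4, JAG1, HES1, HEY1 and NRARP). Among all 16884 genes tested, 51.1% passed, 25.2% higher and 25.9% lower in knockdown, so 4 of 9 is near the background and is not a result about the Notch genes as a set. Their median log2 change was 0.19, against -0.00072 for all genes tested.

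**Figure D1:**
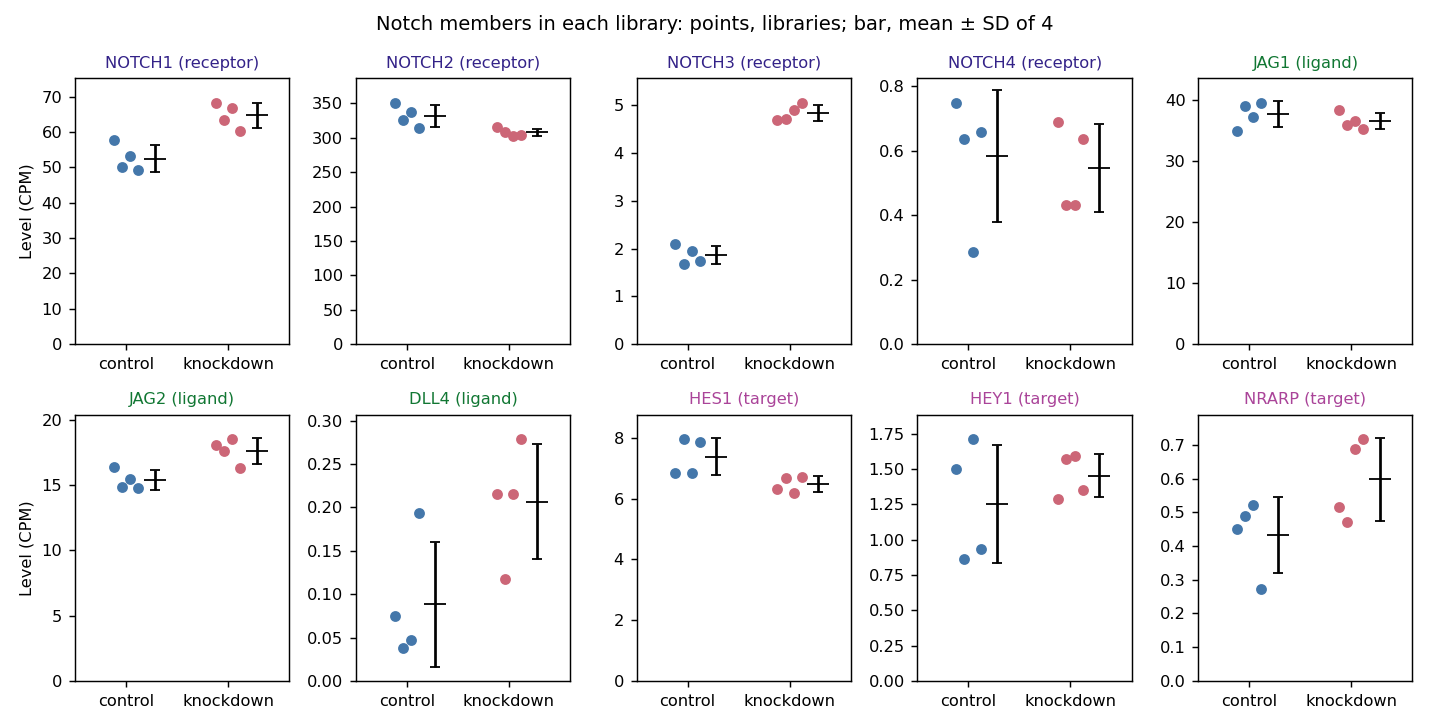
Level of each Notch member (vertical axes, CPM, starting at 0) in the 4 control and 4 ATOH8 knockdown libraries, with each point a library and each bar the mean ± SD of 4. NOTCH3 sits between 1.69 and 2.10 CPM in control and between 4.69 and 5.06 CPM in knockdown libraries, while the 2 groups overlap for NOTCH2, NOTCH4, JAG1, JAG2, DLL4, HEY1 and NRARP.

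NOTCH3 (ENSG00000074181.9, chromosome 19), the receptor best known from vascular smooth muscle cells and pericytes, was low in this line. Control libraries 1 to 4 held 56, 45, 41 and 45 counts, or 2.10, 1.69, 1.95 and 1.75 CPM. Knockdown libraries 1 to 4 held 109, 120, 114 and 127 counts, or 4.69, 4.71, 4.91 and 5.06 CPM. Each knockdown library lay above every control library, and the gap between the groups was wider than the range within either. The mean went from 1.87 ± 0.189 to 4.84 ± 0.173 CPM (SD, n = 4), a rise of 2.59-fold with a 95% interval of 2.15 to 3.12 (log2 1.37, SE 0.132, edgeR adjusted p = 7.15e-10). Spread between libraries was at or under counting error, with a coefficient of variation of 10.1% in control and 3.58% in knockdown against 14.6% and 9.23% that counting alone would give.

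NOTCH1 (ENSG00000148400.12, chromosome 9), the receptor with the broadest known roles in development, rose modestly. It stood at 57.7, 50.0, 53.1 and 49.3 CPM in control libraries 1 to 4, and at 68.3, 63.5, 66.8 and 60.4 CPM in knockdown libraries 1 to 4. The groups did not overlap, although control replicate 1 and knockdown replicate 4 were close. The mean went from 52.5 ± 3.83 to 64.8 ± 3.52 CPM (SD, n = 4), 1.23-fold with a 95% interval of 1.15 to 1.32 (log2 0.30, SE 0.048, edgeR adjusted p = 1.48e-05). The coefficient of variation of 7.29% in control libraries exceeded the 2.76% that counting alone would give, so for NOTCH1 the spread between libraries and not the depth set the error.

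NOTCH2 (ENSG00000134250.20, chromosome 1), the receptor with known roles in nephron segmentation, was per length the most abundant member and fell slightly. Its levels were 351, 325.7, 337 and 314 CPM in control libraries 1 to 4, and 315, 308, 303 and 304 CPM in knockdown libraries 1 to 4. The groups overlapped, since knockdown replicate 1 lay above control replicate 4. The mean went from 332 ± 15.9 to 308 ± 5.71 CPM (SD, n = 4), and NOTCH2 fell by 0.11 on the log2 scale (SE 0.033, edgeR adjusted p = 0.00643), which is 0.926 of the control level with a 95% interval of 0.884 to 0.971. NOTCH2 also has partial human-specific copies, the NOTCH2NL genes. Their 4 rows together held 14.9% to 16.5% as many counts as NOTCH2, and the sources used here do not give how reads were divided between them. They went different ways, with NOTCH2NLB at log2 -0.60 (SE 0.223, edgeR adjusted p = 0.0372), NOTCH2NLR at 1.00 (SE 0.244, adjusted p = 0.00102), and NOTCH2NLA and NOTCH2NLC at -0.14 and -0.01 (adjusted p = 0.0503 and 0.913). Their summed counts were 14.9% to 15.7% of those of NOTCH2 in control and 15.2% to 16.5% in knockdown libraries. The part that reads shared with these copies have in the NOTCH2 value was not tested.

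NOTCH4 (ENSG00000204301.6, chromosome 6), a receptor known mainly from endothelium, was close to the limit of detection. It had 20, 17, 6 and 17 counts in control libraries and 16, 11, 10 and 16 in knockdown libraries. The groups overlapped throughout. The log2 change was -0.12 with a 95% interval of -0.75 to 0.51 (edgeR adjusted p = 0.774), and its direction turned without control replicate 1 (0.019). In fold terms the interval includes everything from 0.596 to 1.42 of the control level. Part of its locus also overlaps exons of GPSM3 on the same strand, over 98 bases.

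**Figure D2:**
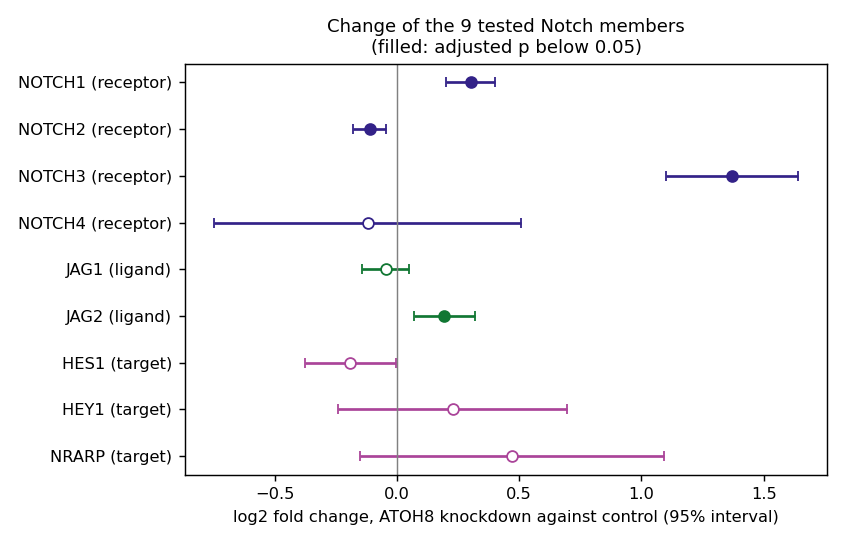
Log2 fold change of knockdown against control (horizontal axis) for the 9 tested members, with bars for the 95% interval and filled points for adjusted p below 0.05. NOTCH3 at 1.37 stands apart from the other members, which lie between -0.19 and 0.47, and the intervals of NOTCH4, HEY1 and NRARP are the widest of the 9.

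Levels of different genes were compared only per length, as CPM divided by the kilobases of all annotated exons of the gene. By this measure NOTCH2 held 78.8% ± 0.509 of the summed receptor level in control and 72.9% ± 0.814 in knockdown libraries (SD, n = 4). NOTCH1 went from 20.2% ± 0.452 to 24.8% ± 0.894 of the sum, and NOTCH3 from 0.793% ± 0.0436 to 2.05% ± 0.115. NOTCH4 made up 0.239% ± 0.0832 and 0.223% ± 0.0534. The summed receptor level per length was 25.1 ± 1.32 CPM per kilobase in control and 25.1 ± 0.590 in knockdown libraries. Thus even after its rise NOTCH3 was a minor receptor by RNA level, far below NOTCH1 and NOTCH2.

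The 2 Jagged ligands were both expressed, and the Delta-like ligand was nearly absent. JAG1 (ENSG00000101384.12, chromosome 20), the ligand mutated with NOTCH2 in Alagille syndrome, stood at 34.9, 39.0, 37.1 and 39.5 CPM in control libraries 1 to 4 and at 38.3, 35.9, 36.4 and 35.2 CPM in knockdown libraries 1 to 4. The groups overlapped almost fully. Its log2 change was -0.05 (SE 0.047, edgeR adjusted p = 0.437), with a 95% interval of -0.14 to 0.05. In fold terms that interval runs from 0.905 to 1.04 of the control level.

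JAG2 (ENSG00000184916.9, chromosome 14), the second Jagged ligand, rose slightly. It stood at 16.4, 14.9, 15.5 and 14.7 CPM in control libraries 1 to 4, and at 18.1, 17.6, 18.5 and 16.3 CPM in knockdown libraries 1 to 4. Control replicate 1 lay just above knockdown replicate 4, and otherwise the groups were apart. The mean went from 15.4 ± 0.767 to 17.6 ± 0.963 CPM (SD, n = 4), 1.14-fold with a 95% interval of 1.05 to 1.25 (log2 0.19, SE 0.061, edgeR adjusted p = 0.00904).

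DLL4 (ENSG00000128917.8, chromosome 15), the ligand of endothelial tip cells, did not pass the filter on low counts. It had 2, 1, 1 and 5 counts in control libraries and 5, 3, 5 and 7 in knockdown libraries, and the groups overlapped. The summed counts were 9 (exact Poisson 95% interval 4.12 to 17.1) and 20 (12.2 to 30.9), intervals that cover counting error only. Without the filter its log2 change was 1.15 (SE 0.677, edgeR adjusted p = 0.232). Of the summed ligand level per length, JAG1 held 62.5% ± 2.43 in control and 58.4% ± 0.939 in knockdown, JAG2 37.2% ± 2.51 and 41.0% ± 1.05, and DLL4 0.286% ± 0.228 and 0.649% ± 0.222 (SD, n = 4).

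None of the 3 target genes passed the test, and they did not share a direction. The cleaved receptor acts through RBPJ, whose core motif is TGGGAA, or TTCCCA when read on the other strand. Only the promoter was searched for it here. Stretches of 120 bases are shown for HES1, for its relative HES4, for NRARP and for the receptor NOTCH3, each from 140 to 21 bases upstream of the annotated start. They are RefSeq sequences of GRCh38.p14, printed 5′ to 3′ on the strand of the gene, with the core motif in capitals.
HES1, chr3:194136008-194136127, plus strand: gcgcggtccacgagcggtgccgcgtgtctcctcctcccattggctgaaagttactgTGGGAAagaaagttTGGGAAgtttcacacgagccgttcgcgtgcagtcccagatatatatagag
HES4, chr1:1000118-1000237, minus strand: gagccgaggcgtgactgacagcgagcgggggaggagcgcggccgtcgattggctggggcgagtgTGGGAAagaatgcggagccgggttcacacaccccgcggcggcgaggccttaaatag
NRARP, chr9:137302292-137302411, minus strand: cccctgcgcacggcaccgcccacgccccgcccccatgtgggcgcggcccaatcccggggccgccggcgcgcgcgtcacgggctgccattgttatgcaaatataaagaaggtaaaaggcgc
NOTCH3, chr19:15201016-15201135, minus strand: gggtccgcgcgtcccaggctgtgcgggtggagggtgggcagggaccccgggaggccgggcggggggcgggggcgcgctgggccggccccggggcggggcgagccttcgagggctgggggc

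HES1 holds the core motif 2 times, beginning 84 and 70 bases upstream of its start, and HES4 holds it 1 time, 76 bases upstream. The motif was searched on both strands in the 250 bases upstream of each start. Of the 10 Notch members 9 had an entry in the RefSeq promoter table, and HES1 was the only one of them with a match. HEY1 had no entry, so its promoter was not searched. Among the 9 other HES and HEY family genes searched, 6 had at least 1 match and 2 (HES5 and HEYL) had 2. Of all 35116 promoters in that table, 20.8% held at least 1 match and 2.90% at least 2. A match is a description of the letters in this window and not evidence that RBPJ binds there. Sites outside the window and variants of the motif were not searched, so a promoter without a match may still have them.

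HES1 (ENSG00000114315.4, chromosome 3), a helix-loop-helix repressor and the most general Notch target, was per length the most abundant of the 3 targets. It stood at 6.86, 7.96, 6.84 and 7.88 CPM in control libraries 1 to 4, and at 6.32, 6.68, 6.20 and 6.73 CPM in knockdown libraries 1 to 4. Every control library was above every knockdown library, but control replicates 1 and 3 were only slightly so. The log2 change was -0.19 (SE 0.090), with an unadjusted p of 0.0449 that became 0.0809 after adjustment over all genes in edgeR. Its 95% interval, not adjusted for the number of genes, ran from -0.37 to -0.0047, or 0.771 to 0.997 of the control level. For 45.6% of all genes tested the 2 groups did not overlap, and HES1, NOTCH1 and NOTCH3 were the 3 of 9 tested members for which this held.

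HEY1 (ENSG00000164683.17), another repressor of this family, had 40, 23, 36 and 24 counts in control and 30, 40, 37 and 34 in knockdown libraries. Control replicates 2 and 4 were low and control replicates 1 and 3 as high as the knockdown libraries, so the groups overlapped. Its log2 change was 0.23 (SE 0.228, edgeR adjusted p = 0.425), with a 95% interval of -0.24 to 0.70. NRARP (ENSG00000198435.4, chromosome 9), an ankyrin-repeat protein that is induced by Notch and dampens it, had 12, 13, 11 and 7 counts in control and 12, 12, 16 and 18 in knockdown libraries. These overlapped too, and NRARP stood at log2 0.47 (SE 0.304, edgeR adjusted p = 0.204), with a 95% interval of -0.15 to 1.09. In fold terms the intervals run from 0.847 to 1.62 for HEY1 and from 0.900 to 2.13 for NRARP. The coefficient of variation of HEY1 over control libraries was 33.5%, against 18.0% from counting alone.

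Per length, the 10 genes spanned about 3 orders of magnitude. In control libraries the order was NOTCH2 (19.8 ± 0.945 CPM per kilobase), NOTCH1 (5.06 ± 0.369), JAG1 (4.04 ± 0.225), HES1 (3.58 ± 0.298), JAG2 (2.40 ± 0.120), HEY1 (0.387 ± 0.130), NRARP (0.245 ± 0.0631), NOTCH3 (0.199 ± 0.0201), NOTCH4 (0.0598 ± 0.0210) and DLL4 (0.0186 ± 0.0151; SD, n = 4). The ranges of 4 neighbouring pairs overlapped: JAG1 with HES1, HEY1 with NRARP, NRARP with NOTCH3, and NOTCH4 with DLL4. In knockdown libraries NOTCH3, at 0.515 ± 0.0185, stood above HEY1 (0.449 ± 0.0472) and NRARP (0.338 ± 0.0692), with no overlap between NOTCH3 and HEY1. The order of NOTCH1 and JAG1 in control, and of NOTCH3 and HEY1 in knockdown libraries, depends on the length used. With the longest annotated transcript in place of all exons, JAG1 (6.33) stood above NOTCH1 (5.64 CPM per kilobase) in control. By that length HEY1 (0.632) stood above NOTCH3 (0.559 CPM per kilobase) in knockdown libraries.

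**Figure D3:**
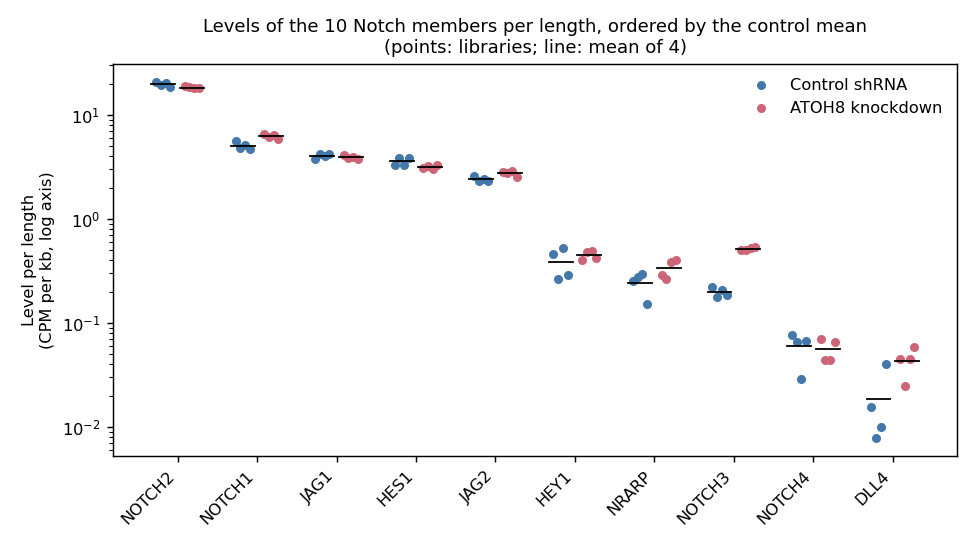
Level per length (vertical axis, CPM per kilobase, log axis) of the 10 members in order of the control mean, with each point a library and each line the mean of 4. NOTCH2 is highest at 19.8 in control and 18.3 in knockdown libraries, and NOTCH3 is the member whose 2 groups are farthest apart relative to their spread, at 0.199 and 0.515.

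Among the 12159 genes with a symbol and a mean log2 CPM of at least 2, the 3 whose pattern over the 8 libraries was most like that of NOTCH3 were SHROOM2, MAP1A and PTPRU. Likeness was the Euclidean distance between mean-centred log2 CPM values, which was 0.194 for SHROOM2, 0.249 for MAP1A and 0.257 for PTPRU. SHROOM2, an actin-binding protein, went from 2.63 ± 0.121 to 7.18 ± 0.204 CPM, MAP1A, a microtubule-associated protein, from 19.7 ± 0.895 to 51.2 ± 2.35 CPM, and PTPRU, a receptor tyrosine phosphatase, from 36.6 ± 0.742 to 89.9 ± 2.82 CPM (SD, n = 4). These genes were picked for their likeness, so their changes are a description.

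Other genes of the pathway were taken from 9 lists by role, 96 genes in all. Of 85 with enough counts, 47 rose and 19 fell, while the test was not passed by 19, and their median log2 change was 0.17. The median of all genes tested was -0.00072, and 25.2% of them rose and 25.9% fell. The lists were chosen with earlier results of these data known, so their counts are a description and not a test of the pathway.

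Among other ligands and extracellular modulators, 5 of 9 tested genes rose and 1 fell. MFAP5 (log2 1.16, SE 0.118) and MFAP2 (log2 0.94, SE 0.069), microfibril proteins that can bind Notch1 and Jagged1, rose, as did CNTN1 (log2 1.37, SE 0.172), a contactin described as a Notch ligand. EGFL7, a secreted modulator of endothelial Notch, was at 10.7 ± 0.819 CPM in control and 7.38 ± 0.306 CPM after knockdown, a fall (log2 -0.53, SE 0.081, edgeR adjusted p = 2.54e-06). The other canonical ligands were low and did not pass, with DLL1 at log2 -0.37 (edgeR adjusted p = 0.223) and DLL3 at 0.45 (adjusted p = 0.0614, but 0.0226 without knockdown replicate 3, 0.0482 without knockdown replicate 4 and 0.0454 with a minimum of 1 CPM in 4 libraries).

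Of the 9 genes for receptor processing, 5 fell and 3 rose. PSEN2, a catalytic subunit of gamma-secretase, fell by 0.70 on the log2 scale (SE 0.084, edgeR adjusted p = 5.54e-08), with means of 10.4 ± 0.415 and 6.38 ± 0.552 CPM. The gamma-secretase subunits APH1A (log2 -0.19, SE 0.032) and NCSTN (log2 -0.17, SE 0.030) fell, while APH1B, the alternative to APH1A, rose (log2 0.43, SE 0.063). FURIN, which makes the first cut in the Golgi, rose (log2 0.24, SE 0.040). ADAM10, the sheddase of activated Notch, rose by a small amount (log2 0.09, SE 0.035, edgeR adjusted p = 0.0266), a call lost without any of control replicates 1 to 3 or knockdown replicates 2 and 4 (adjusted p = 0.0556 to 0.124).

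Of 8 tested genes for receptor glycosylation, 4 rose and 2 fell. The xylosyltransferase GXYLT1 (log2 0.43, SE 0.034), the fringe RFNG (log2 0.35, SE 0.047) and POGLUT1, which adds glucose to the EGF repeats (log2 0.31, SE 0.059), rose. LFNG, another fringe, fell from 53.5 ± 0.908 to 49.2 ± 0.966 CPM (log2 -0.12, SE 0.038), and GXYLT2 fell as well (log2 -0.32, SE 0.097). MFNG, the remaining fringe, had 1 to 7 counts and was not tested.

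Of 5 tested genes for ligand ubiquitination and endocytosis, 3 rose, and MIB1 and EPN2 did not pass. The ubiquitin ligase gene MIB2 (log2 0.54, SE 0.047), the epsin EPN1 (log2 0.30, SE 0.035) and NEURL1B (log2 0.40, SE 0.141, edgeR adjusted p = 0.0192) rose. The NEURL1B call was lost without control replicate 3, control replicate 4 or knockdown replicate 2 (adjusted p = 0.0513 to 0.0742). MIB1, the main ligase for Jagged ligands, was at 159 ± 2.02 and 156 ± 3.24 CPM (log2 -0.03, adjusted p = 0.409). Of 12 tested genes for receptor trafficking and turnover, 6 rose and 4 fell. DTX4 (log2 0.59, SE 0.065), DTX3 (log2 0.48, SE 0.065) and SEL1L (log2 0.19, SE 0.033) rose, and DTX3L (log2 -0.51, SE 0.052), CCNC (log2 -0.34, SE 0.045) and DTX2 (log2 -0.33, SE 0.043) fell. The deltex family thus went both ways, and DTX3L is known to be interferon-induced.

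In the nucleus the DNA-binding partner did not pass the test, and several of its cofactors changed. RBPJ was at 128 ± 1.96 and 123 ± 5.76 CPM (log2 -0.05, SE 0.035, edgeR adjusted p = 0.264). Of the 9 genes of the activation complex, 4 rose and 1 fell. MAML3 rose (log2 1.06, SE 0.224), with means of 0.697 ± 0.108 and 1.44 ± 0.103 CPM, and the acetyltransferases CREBBP (log2 0.25, SE 0.039) and EP300 (log2 0.19, SE 0.041) rose. MAML2, another Mastermind coactivator, fell (log2 -0.18, SE 0.045). Of 15 corepressor genes, 8 rose and 3 fell. FHL1 (log2 0.41, SE 0.045) and NCOR1 (log2 0.24, SE 0.036) rose. CIR1 (log2 -0.44, SE 0.054), CTBP1 (log2 -0.26, SE 0.035) and L3MBTL3 (log2 -0.29, SE 0.084) fell. Counts were per gene, so which splice forms of FHL1 rose, and whether they act as corepressors, was not tested.

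Only 3 of the 9 other HES and HEY family genes had enough counts, and they went both ways. HES4, the relative with a core motif near its start, had 25.6, 22.6, 23.1 and 23.2 CPM in control libraries 1 to 4 and 22.4, 20.8, 21.1 and 19.9 CPM in knockdown libraries 1 to 4. All control libraries were above all knockdown libraries, and HES4 fell (log2 -0.17, SE 0.055, edgeR adjusted p = 0.0123), a call lost without control replicate 1 (log2 -0.13, adjusted p = 0.0718). HES2 had means of 1.12 ± 0.160 and 2.77 ± 0.373 CPM and rose (log2 1.30, SE 0.179, adjusted p = 5.17e-07). HES6, an antagonist of HES1, rose in the main test (log2 0.23, SE 0.093, adjusted p = 0.0420), but the call was lost by DESeq2 (adjusted p = 0.0935), without a filter on low counts (0.0573), and without control replicates 1 or 2 or knockdown replicates 1 or 3 (0.0889 to 0.183). HEYL, a target in mural cells, had too few counts to test.

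Of 15 tested genes known as Notch targets in some cell types, 12 rose, 2 fell and 1 did not pass. Of all genes tested, 25.2% rose and 25.9% fell. This list too was chosen with earlier results of these data known, so its counts are a description. CDKN1A, the cell cycle inhibitor p21 and also a p53 target, went from 985 ± 22.4 to 1468 ± 35.7 CPM (log2 0.58, SE 0.031). The smooth muscle actin gene ACTA2 (log2 0.33, SE 0.039) and EFNB2, an arterial ephrin (log2 0.35, SE 0.046), rose. NFKB2 (log2 -0.22, SE 0.039) and MYC (log2 -0.20, SE 0.050) fell. All of these genes answer to other pathways too, and what part Notch had in their levels was not tested.

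**Figure D4:**
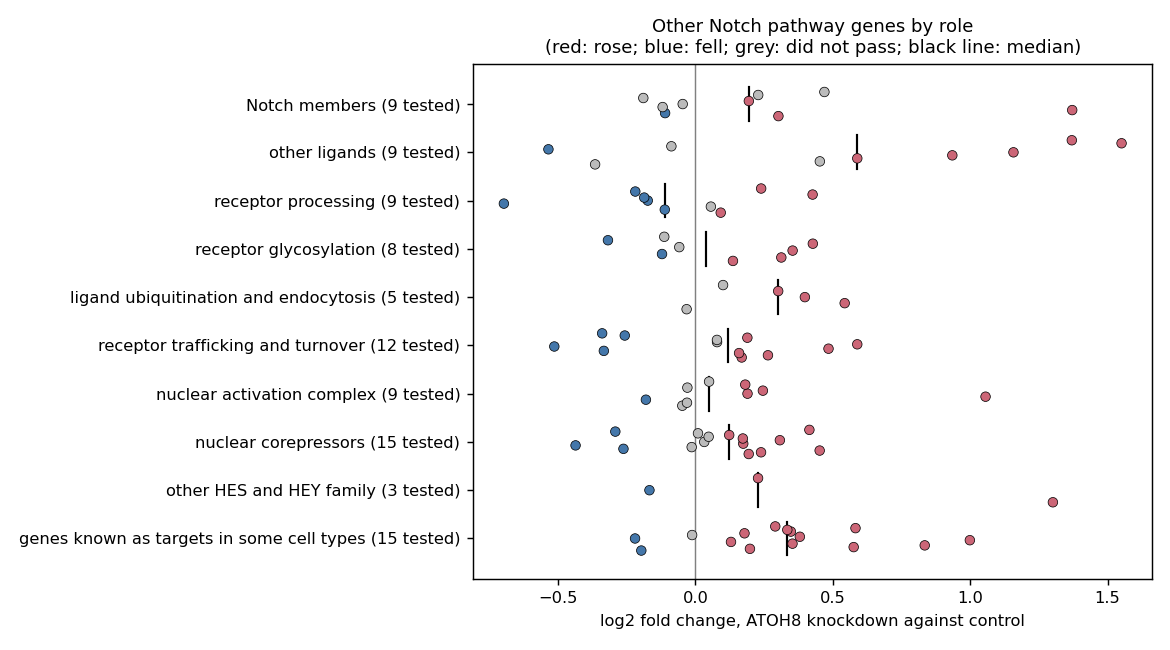
Log2 fold change (horizontal axis) of each tested gene in the Notch members and in 9 lists of other pathway genes, with red for genes that rose, blue for genes that fell, grey for genes that did not pass and a black line for the median of a list. Receptor processing is the list with the lowest median (-0.11) and other ligands the one with the highest (0.59), and 8 of the 9 lists hold both genes that rose and genes that fell.

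NOTCH3 is also a marker of mural cells, so markers of other cell types are given beside it. In bulk RNA, fewer cells of a type and less RNA per cell cannot be told apart. The marker counts below stand against 25.2% of all genes tested that rose and 25.9% that fell. The summed level of 10 mural markers was 631 to 657 CPM in control and 747 to 781 CPM in knockdown libraries. Most of that sum was MCAM, at 513 ± 8.91 and 502 ± 8.14 CPM, which did not pass (edgeR adjusted p = 0.402). Of 8 tested mural markers 5 rose, among them THY1 (log2 3.48, SE 0.098) and CSPG4 (log2 1.87, SE 0.052), and 2 fell, RGS5 (log2 -0.39, SE 0.096) and KCNJ8 (log2 -0.61, SE 0.126). ITGA8, a mesangial integrin, had 0 counts in 7 libraries and 1 in the other. The part that mural marker genes have in the NOTCH3 result was not tested.

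For the endothelial genes NOTCH4, DLL4 and EGFL7, the 12 endothelial markers summed to 11.7 to 12.9 CPM in control and 18.1 to 21.2 CPM in knockdown libraries, and of 5 tested 3 rose (TIE1, TEK and VWF) and 2 did not pass (CDH5 and ROBO4). TIE1, a receptor tyrosine kinase of endothelium, stood at 18 to 33 counts per control library and 150 to 171 per knockdown library (log2 2.68, SE 0.149). CDH5, the endothelial cadherin, stood at 9 to 15 counts per control library and 16 to 21 per knockdown library (edgeR adjusted p = 0.0667). Of the 12 markers, 6 had under 10 counts in every library, among them PECAM1 with 0 to 1 and EMCN with 0 in all 8. The part that endothelial marker genes have in the NOTCH4, DLL4 and EGFL7 values was not tested. The 8 leukocyte markers summed to 76.7 to 86.9 and 103 to 113 CPM, nearly all of it CD68. Of 4 tested, 2 rose, CD68 (log2 0.42, SE 0.040) and ITGAM (log2 2.56, SE 0.320), and CD14 and CSF1R did not pass. The other 4 had under 10 counts in every library, among them PTPRC with 0 to 2. The 12 podocyte markers summed to 998 to 1027 CPM in control and 838 to 887 CPM in knockdown libraries. Most of that sum was KIRREL1 (626 ± 18.2 and 489 ± 12.6 CPM) and CD2AP (227 ± 5.76 and 189 ± 13.3 CPM). Of 8 tested podocyte markers, 3 rose (SYNPO, NES and VEGFA) and 3 fell (KIRREL1, CD2AP and PODXL), while WT1 and TCF21 did not pass.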

How the data were processed

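Gene counts from poly(A)-enriched RNA of 8 AB8/13 libraries were used as deposited. Per the submitters' processing notes, STAR, featureCounts and DESeq2 and the build hg19 were named. The sources used here do not give the annotation, the strand setting or the rule for reads shared by genes. Symbols came from a gene name table (60295 genes) or GENCODE release 29 (250). GENCODE describes GRCh38 and served for names, chromosomes and exon lengths only. The identifiers of NOTCH2NLB, NOTCH2NLC and NOTCH2NLR are not in GENCODE release 29, so the counts were made with another annotation. The build and annotation used for counting are not settled. 1 row with a missing cell and 44 pseudoautosomal copies, all without counts, were left out. Genes were filtered with filterByExpr, scaled by TMM and compared with the quasi-likelihood F test of edgeR 4.0.16 (limma 3.58.1, R 4.3.3), with Benjamini-Hochberg adjustment over all 16884 genes tested. SE was derived from the F statistic, and 95% intervals of fold changes use it. Counts were also simulated for this comparison (16682 genes tested, 200 changed). The test found 96 of the 100 genes with a 2-fold change and 79 of the 100 with a 1.3-fold change. Of its calls, 1.69% were false. The changed genes were drawn from those with about 1 CPM or more. These rates therefore do not cover NOTCH4 and NRARP, at 0.583 and 0.433 CPM in control libraries. The simulation held no change smaller than 1.3-fold. Its rates thus do not cover changes as small as those estimated for NOTCH1, NOTCH2, JAG2 and HES1 either. Far fewer genes changed in the simulation than the 51.1% called in the data, so the false share may differ there.

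Alternatives were DESeq2 1.42.0 (its size factors in edgeR, and its Wald test), no filter, a minimum of 1 CPM in 4 libraries, a block for the replicate number, leaving out each library, and, chosen after seeing the data, the longest transcript as length. Within groups, 12 library pairs differed by more than sampling noise (chi-square per gene 1.95 to 4.48). The labels do not say whether replicates were separate cultures, so the p-values may reflect technical spread alone. The members and lists were chosen with earlier results of these data known. From each list, up to 3 rising and 3 falling genes with the smallest adjusted p were named, and a gene that this rule names is not reported here. MIB1, EPN2, RBPJ, DLL1, DLL3, MFNG and HEYL and the single markers were named after their values were seen.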

Additional observations from a re-analysis of the deposited data

How the results depend on the processing

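NOTCH1, NOTCH3 and JAG2 rose and NOTCH2 fell in the main fit and under all 13 alternatives, and HES1, JAG1, HEY1, NRARP and NOTCH4 passed in none of those that tested them. For NOTCH3 the log2 change ran from 1.32 to 1.43, for NOTCH1 from 0.27 to 0.35, for NOTCH2 from -0.14 to -0.08 (highest adjusted p 0.0339), for JAG2 from 0.17 to 0.23 (0.0368), and for HES1 from -0.23 to -0.15 (adjusted p = 0.0538 to 0.217). With the replicate block, NOTCH2 stood at -0.11 and 4336 genes were higher and 4466 lower, and no call of a member changed. Samples with the same number correlated at -0.057 to 0.143, so the numbers were not taken as pairs, and 2 of 4 control libraries correlated best with the knockdown library of their own number. When 1 library was left out, NOTCH4 ran from -0.32 to 0.019, HEY1 from 0.082 to 0.40 and NRARP from 0.30 to 0.57. The cause was not tested. Of the other pathway genes, 44 to 47 rose and 18 to 20 fell. In 1102 fits of these 85 genes under the alternatives, 26 calls were lost, 4 were gained and 10 signs turned, and all 10 were of genes that did not pass. With the longest transcript as length, control and knockdown shares were 16.1% and 20.1% for NOTCH1, 83.1% and 78.0% for NOTCH2, 0.614% and 1.62% for NOTCH3, 70.4% and 66.6% for JAG1, and 29.4% and 32.7% for JAG2. NOTCH4, HEY1, NRARP and DLL4 had under 50 counts per library, where counting error is part of the spread. NOTCH3 was near that level in control libraries, at 41 to 56 counts, and held 109 to 127 in knockdown libraries.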
